A study of Mus musculus with 199 samples.

Results

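The comparison described here set 25 large against 25 small liver tumours from the same mouse model, 50 of the 199 libraries of the series, with every library chosen by its title. All tumours came from male wild-type C57BL/6 mice of an in-house colony that were given DEN (diethylnitrosamine, a chemical carcinogen) and the ALIOS diet (American lifestyle-induced obesity syndrome, a diet that gives fatty liver disease). Both tumour groups therefore carry the carcinogen and the diet, and differ by label only in size. The size that separates large from small, the age of the mice and the mouse each tumour came from are not given in the sources used here. Some tumours may share a mouse, so that p-values measure the spread between samples. Liver tissue from 15 libraries, whose treatment is labelled normal and whose cell type is labelled whole tissue, is given beside the tumours as a reference level without a test. The titles of these libraries also name DEN and ALIOS, so the tissue is not taken as untreated.

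Hepatocytes in a liver lobule differ by position. Those next to the central vein make glutamine and drug-metabolising enzymes under Wnt signals that come from the endothelium of the central vein and sinusoids, and those next to the portal vein carry out urea synthesis and gluconeogenesis. Sinusoidal endothelial cells are permeable scavenger cells, and Kupffer cells are the resident macrophages that lie inside the sinusoids. In male mice, pulses of growth hormone keep a set of hepatocyte genes at a male-specific level. Hepatocellular tumours commonly lose parts of this zonal, vascular and sex-specific programme.

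The authors deposited raw counts, and gene counts per tumour library lay between 12055434 and 21850190. The libraries carry 3 name prefixes, taken here as sequencing runs A, B and C, over which large tumours fell as 5, 10 and 10 and small tumours as 10, 5 and 10. Hepatocyte transcripts dominated both groups: albumin (Alb) had a median of 150159 CPM (counts scaled to library size) in large and 163909 CPM in small tumours, and Hnf4a, a hepatocyte transcription factor, 684 and 698 CPM. Reads without a unique alignment were 47.7% ± 2.17 (SD, n = 25) of entries in large and 49.2% ± 1.88 (SD, n = 25) in small tumours, a difference with an adjusted p of 0.0313 over 5 library measures (two-sided permutation test within runs). The part of that share in the results below was not tested. The spread between libraries, as edgeR's common biological coefficient of variation, was 28.8% in large tumours, 26.5% in small tumours and 15.3% in liver tissue.

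Few genes were called between large and small tumours at this spread. With edgeR's quasi-likelihood test, run as a term and Benjamini-Hochberg adjustment, 38 of 13913 genes tested (0.273%) were called at an adjusted p under 0.05, 13 of them higher in large tumours (0.0934%) and 25 lower (0.18%). The falls were larger than the rises: 9 of 25 falls but 2 of 13 rises reached 1 on the log2 scale, and the median fall was -0.80 against a median rise of 0.28. Of the genes with these 9 falls, all but Folr2 had a median under 1 CPM in large tumours, such as Pla2g2e (0.217 CPM) and Cst8 (0.329 CPM). The size of those falls therefore rests on few counts. At an unadjusted p under 0.05, 1010 genes were higher (7.26%) and 983 lower (7.07%), together 14.3%, and the median difference over all genes was 0.00. The 38 calls are thus a count at this threshold and not the number of genes that differ. Throughout, differences are log2 fold changes of large minus small tumours, given with their standard error. The lowest adjusted p was 0.0331, so every call lies near the threshold, and leaving out single libraries moved the count between 0 and 171. It fell to 0 without large tumour 19, small tumour 17 or small tumour 22, and rose to 171 without large tumour 22. All 38 genes kept their direction in each of these 50 fits. A fit that also held the 15 liver tissue libraries, which vary less, called 135 genes higher (0.929%) and 225 lower (1.55%) of 14538 tested, among them 37 of the 38. Its common coefficient of variation was 26.5%, against 27.8% in the fit of 50 tumours. It may therefore understate the spread of tumours, and its counts here and below are no separate support.

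**Figure D1:**
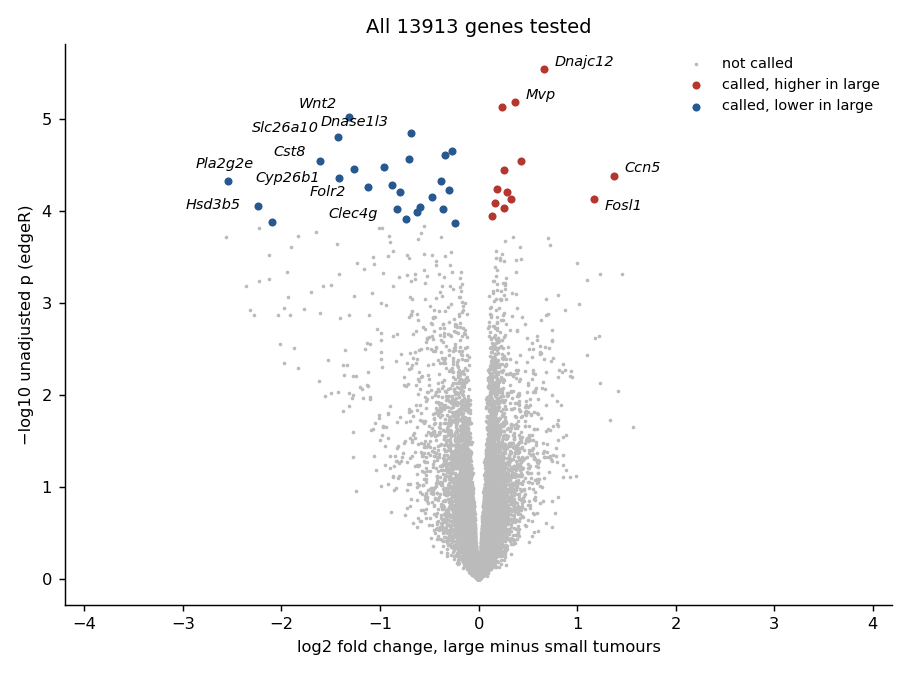
Each point is 1 of the 13913 genes tested, with the log2 fold change of large minus small tumours on the x axis and the −log10 unadjusted p of edgeR's test on the y axis; the 13 genes called higher are red, the 25 called lower blue and the rest grey. The called falls reach -2.54 (Pla2g2e), while the called rises stay at or under 1.37 (Ccn5).

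The largest group among the genes called lower was that of sinusoidal endothelium. Of 15 such genes tested, 5 were called lower in large tumours (0.18% of all genes), none was called higher, and all 15 had a negative difference, with a median of -0.48. The genes called were Wnt2, Dnase1l3, Clec4g, Stab2 and Bmp2. At an unadjusted p, 13 of the 15 were lower, against 7.07% of all genes, and in the fit with liver tissue 8 of the 15 were called lower, against 1.55%. Without large tumour 18 none of the 5 passed (2 genes called in all, both higher), while the list median was -0.44 and 12 of 15 were lower at an unadjusted p. Members of this list and of the lists below were chosen with earlier results of these data known. Their counts beside the share over all genes are therefore a description and no test. The share of sinusoidal cells in a tumour and the RNA per such cell cannot be told apart in bulk tissue.

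Wnt2, a Wnt ligand that liver endothelium supplies to neighbouring hepatocytes, lies at chr6:17988940-18030585 on the minus strand (GRCm38). Its level ran from 0.0561 to 2.51 CPM with a median of 0.758 in large tumours, and from 0.282 to 4.14 with a median of 2.42 in small tumours. Of the large tumours 23 of 25 lay below the median of the small ones, although the ranges overlapped. The difference was -1.32 ± 0.27 (edgeR, adjusted p = 0.0331). In liver tissue the median was 3.07 CPM.

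Dnase1l3, a secreted nuclease that clears extracellular DNA, had a lowest, median and highest level of 12.7, 41.2 and 72.1 CPM in large tumours and of 36.3, 64.2 and 98.0 CPM in small tumours. Its difference was -0.69 ± 0.14 (edgeR, adjusted p = 0.0348), and 11 of the 25 large tumours lay below every small tumour. Clec4g, a lectin receptor of sinusoidal endothelium, ran from 4.56 to 63.0 CPM (median 23.9) in large and from 22.0 to 86.0 CPM (median 47.9) in small tumours. It was lower by -0.82 ± 0.19 (edgeR, adjusted p = 0.0402), again with 11 large tumours below the lowest small one. Stab2, the scavenger receptor that takes up hyaluronan, ran from 16.9 to 84.3 CPM (median 53.8) in large and from 39.98 to 155.7 CPM (median 67.0) in small tumours. Its fall was smaller, at -0.48 ± 0.11 (edgeR, adjusted p = 0.0382), and 7 large tumours lay below the lowest small one. Bmp2, an endothelial ligand that induces the iron hormone hepcidin in hepatocytes, had medians of 9.12 and 12.7 CPM and differed by -0.59 ± 0.14 (edgeR, adjusted p = 0.0402).

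Other members of the list had like values that did not pass. Wnt9b, a Wnt ligand, had a difference of -1.50 ± 0.41 (edgeR, adjusted p = 0.0750), and Rspo3, which amplifies Wnt signals, one of -0.97 ± 0.26 (edgeR, adjusted p = 0.0708). Gata4, the transcription factor known to set the sinusoidal programme, had medians of 12.8 and 16.9 CPM and a difference of -0.37 ± 0.10 (edgeR, adjusted p = 0.0832), and it is also expressed outside endothelium. By contrast Stab1 (-0.12 ± 0.07) and Lyve1 (-0.35 ± 0.22) were far from the threshold. Pecam1, a gene of all endothelium, had medians of 48.7 CPM in large and 42.1 CPM in small tumours and a difference of 0.09 ± 0.13 (edgeR, adjusted p = 0.800).

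A pair of further genes called lower are known from endothelium outside that list. Gja4, the gap junction protein connexin 37, had medians of 3.85 CPM in large and 6.85 CPM in small tumours and fell by 0.70 ± 0.15 (edgeR, adjusted p = 0.0348). Nr2f2, a nuclear receptor that sets venous identity, had medians of 16.3 and 20.7 CPM, against 28.7 CPM in liver tissue, and fell by 0.34 ± 0.07 (edgeR, adjusted p = 0.0348). Of 16 genes of capillary, arterial and tip endothelium none was called, and 12 had a positive difference, with a list median of 0.16. At an unadjusted p, 5 were higher (7.26% of all genes) and 1 was lower (7.07% of all genes). Plat, a plasminogen activator, lay at 1.02 ± 0.29, and at 0.61 without large tumours 19 and 20 (edgeR, adjusted p = 0.189). Within run C it moved from 1.68 to 0.72 without them. Cd34, a marker of capillary endothelium, lay at 0.75 ± 0.24, while Vwf, the clotting factor carrier, lay at -0.55 ± 0.15. With liver tissue in the fit, 2 of the 17 genes tested there, Plat and Cd34, were called higher (0.929% of all genes).

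Because these sinusoidal genes moved together, sequence just before a start site is shown where it could be placed. Of the 5 genes called, 3 have an entry in the RefSeq promoter table (GRCm38.p6), but for Wnt2 and Stab2 the stretch before the start overlaps the gene as annotated on GRCm38, and only Clec4g is shown. The line gives the last 150 bases before the start, 5′ to 3′ on the gene's own strand, and capitals would mark TGATAA or AGATAA, 2 forms of the site that GATA factors bind, on either strand.
Clec4g (chr8:3720652-3720801, minus strand): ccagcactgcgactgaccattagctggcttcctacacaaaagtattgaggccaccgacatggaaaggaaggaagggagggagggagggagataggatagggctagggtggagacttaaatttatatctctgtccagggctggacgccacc
Neither form is in the 250 bases before the start of Clec4g. Other forms of the site were not searched, among them agatag, which is in the line above. The search therefore does not show that the stretch lacks a GATA site. Over all 32851 promoters of the table, 16.6% hold at least 1 match in the same 250 bases, 7.94% for TGATAA and 9.99% for AGATAA.

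Kupffer cell genes were lower as well, with 1 call. Of 11 tested, Folr2 was called lower (0.18% of all genes) and none higher, all 11 had a negative difference with a median of -1.01, and 10 had an unadjusted p under 0.05 (7.07% of all genes). In the fit with liver tissue 9 of the 11 were called lower (1.55% of all genes). Folr2, the folate receptor beta of resident macrophages, ran from 0.652 to 15.0 CPM (median 3.82) in large, from 3.20 to 20.3 CPM (median 11.6) in small tumours and had a median of 31.3 CPM in liver tissue. Its difference was -1.13 ± 0.25 (edgeR, adjusted p = 0.0361), and 9 large tumours lay below every small one. Vsig4, a complement receptor, just missed the threshold with -1.01 ± 0.25 (edgeR, adjusted p = 0.0502). Marco, a scavenger receptor, had medians of 0.556, 3.83 and 34.0 CPM in large tumours, small tumours and liver tissue and a difference of -1.90 ± 0.48 (edgeR, adjusted p = 0.0598). Timd4, which marks long-lived Kupffer cells, had medians of 0.617, 2.26 and 12.5 CPM, and Clec4f, a Kupffer cell lectin, of 36.5, 97.8 and 275.6 CPM. For each of these genes the small tumours lay between large tumours and liver tissue in the median.

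Markers of other macrophages and of lymphocytes were not called. Of 14 genes of lipid-associated and recruited macrophages none was called, but 13 had a positive difference, with a list median of 0.25. At an unadjusted p, 2 of them were higher (7.26% of all genes). Their summed level had medians of 2870 CPM in large and 2475 CPM in small tumours. Trem2, a receptor of that cell state, had medians of 5.70 and 5.63 CPM. The summed level of the 12 pan-macrophage genes had medians of 595.5 CPM in large and 706.2 CPM in small tumours. None of the 12 was called, 11 had a negative difference with a median of -0.10, and 4 were lower at an unadjusted p (7.07% of all genes). None of 11 T cell genes passed either test, although all 11 had a positive difference with a median of 0.43. Cd3e, part of the T cell receptor complex, had a highest level of 6.35 CPM and medians of 0.733 and 1.09 CPM, so that these transcripts rest on few counts. Stellate cell and fibroblast genes, 18 in number, had no call and a median of -0.05.

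**Figure D2:**
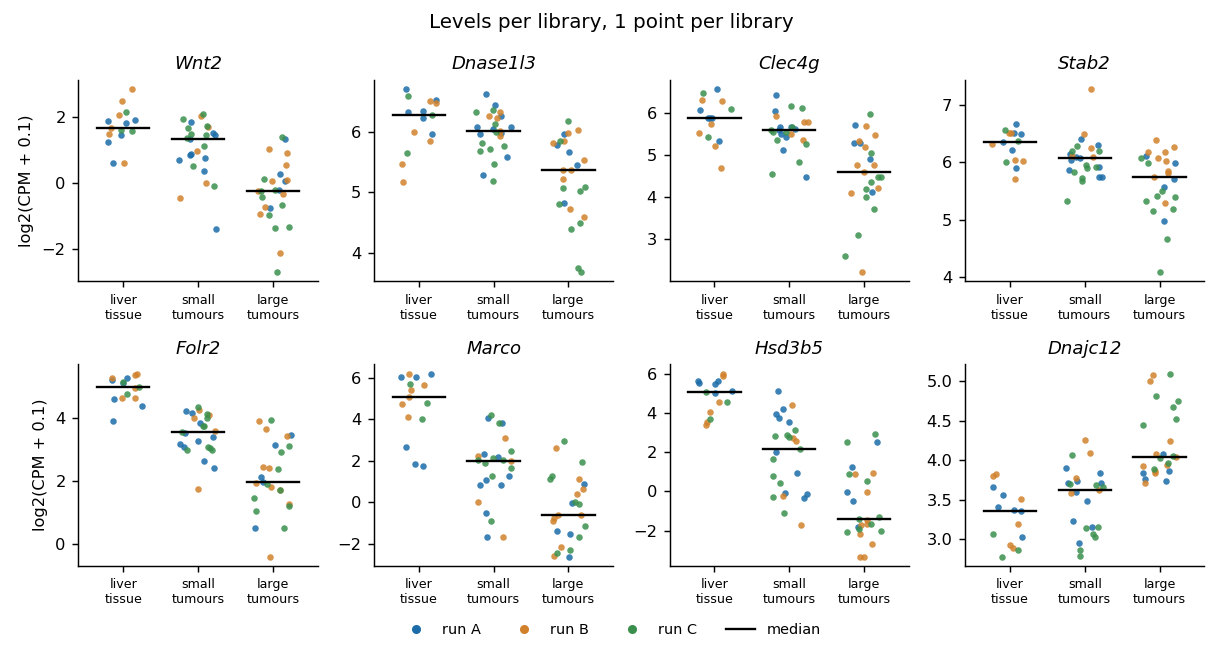
Each point is 1 library, coloured by sequencing run, for 8 genes in 15 liver tissue, 25 small tumour and 25 large tumour libraries; the y axis is log2(CPM + 0.1) and bars are medians. For Wnt2, Dnase1l3, Clec4g, Stab2, Folr2, Marco and Hsd3b5 the median falls from liver tissue through small to large tumours, while for Dnajc12 it rises from 10.1 through 12.3 to 16.4 CPM.

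By list median, male-biased genes lay lowest among the hepatocyte lists. Of 18 male-biased genes tested, 1 was called lower (0.18% of all genes) and none higher, 11 were lower at an unadjusted p (7.07% of all genes), and the median was -0.61. The gene called was Hsd3b5, a steroid dehydrogenase of male mouse liver, which ran from 0 to 7.53 CPM (median 0.281) in large and from 0.209 to 34.7 CPM (median 4.42) in small tumours, against a median of 33.0 CPM in liver tissue. Its difference was -2.24 ± 0.52 (edgeR, adjusted p = 0.0402), and 22 of 25 large tumours lay below the median of small tumours. With limma and quality weights the call was lost (adjusted p = 0.0675). Slco1a1, an uptake carrier for bile acids and other organic anions, had medians of 1.82, 32.0 and 160 CPM in large tumours, small tumours and liver tissue and a difference of -2.13 ± 0.55 (edgeR, adjusted p = 0.0634). Elovl3, a fatty acid elongase, lay at -2.03 ± 0.60, and Cyp4a12a, a fatty acid hydroxylase, at -1.93 ± 0.54. The list did not move as 1 block, since Mup20, the male urinary pheromone protein, had medians of 231.7 and 236.2 CPM. The 15 female-biased genes tested had no call and a median of -0.41, of which Cyp2b13, a cytochrome P450, had the smallest p with -1.84 ± 0.45. Hsd3b5, Cyp4a12a, Cyp2b13 and the Mup genes have close relatives, and reads shared between these may have been lost in counting.

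Genes of bile acid synthesis and transport had negative differences without a call. Of 18 tested, 17 lay below 0 with a median of -0.33, and 8 were lower at an unadjusted p (7.07% of all genes). Cyp7a1, which catalyses the limiting step from cholesterol to bile acids, ran from 0 to 340 CPM (median 3.61) in large and from 0.348 to 244.3 CPM (median 37.4) in small tumours, and liver tissue had a median of 220.5 CPM. The difference of -1.83 ± 0.62 did not pass (edgeR, adjusted p = 0.154). Plasma carrier and coagulation genes, complement genes and hepatocyte transcription factors had smaller list medians, at -0.12, -0.13 and -0.05. No member was called, but 21 of 23, 15 of 19 and 13 of 17 were negative. At an unadjusted p, 3, 5 and 5 of them were lower (7.07% of all genes). Ttr, the thyroid hormone carrier, lay at -0.48 ± 0.12 (edgeR, adjusted p = 0.0634), while Apoa1, the main protein of high-density lipoprotein, had medians of 20355 and 19617 CPM.

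Pericentral genes split the large tumours. Of 16 tested none was called and the median was -0.35, but the median difference was -1.12 in run A alone, -1.48 in run B and 0.90 in run C. Glul, glutamine synthetase, ran from 15.5 to 4016 CPM with a median of 42.7 in large tumours and from 25.3 to 737.8 CPM with a median of 269.7 in small tumours. Thus 21 of 25 large tumours lay below the small median while 2 lay above the highest small tumour. Those were large tumour 20 (4016 CPM) and large tumour 19 (1439 CPM), both of run C, and in liver tissue the median was 1257 CPM.

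Among large tumours, the same 2 had the highest levels of Oat, Cyp2e1, Nkd1, Axin2 and Lgr5. Oat, ornithine aminotransferase, reached 1924 CPM in large tumour 20 and 695.9 CPM in large tumour 19, against a median of 19.5 CPM in large and 87.1 CPM in small tumours. Cyp2e1, the ethanol-oxidising cytochrome P450, reached 11252 and 4079 CPM in them, with medians of 176.1 CPM in large and 1070 CPM in small tumours, the highest of which had 4221 CPM. Nkd1, a feedback inhibitor and target of Wnt signalling, reached 117.7 and 39.9 CPM, where the highest small tumour had 9.12 CPM and the next large tumour 5.33 CPM. Axin2, another such target, reached 39.8 and 15.1 CPM, where the highest small tumour had 7.94 CPM. Lgr5, a receptor for R-spondins, reached 42.1 and 22.4 CPM, where the highest small tumour had 5.08 CPM and large tumour 17 had 11.4 CPM. Of 9 Wnt targets and regulators tested none was called, and their median was -0.60, -1.30 and 1.18 in runs A, B and C.

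Without large tumours 19 and 20, a choice made after these values were seen, 92 genes were called, 71 of them lower (0.51%), among them 37 of the 38. The pericentral median moved to -0.79, and to -0.40 within run C. In that fit 5 of the 16 pericentral genes were called lower, namely Cyp2c37, Cyp2c50, Oat, Glul and Slc1a2, and Cyp2e1 lay at -2.01 (edgeR, adjusted p = 0.0513). Glul was lower by -1.77 (edgeR, adjusted p = 0.0340), compared with -0.74 in all 50 tumours (edgeR, adjusted p = 0.587). Since the 2 tumours were left out for their high levels of these very genes, the 5 calls describe the other 48 libraries and are no test of the groups. Calls on other genes in that fit included Marco (-2.19), Timd4 (-1.60), Slco1a1 (-2.27) and Cyp7a1 (-2.45), at edgeR adjusted p-values of 0.0284, 0.0372, 0.0379 and 0.0358. Of these, Cyp7a1 depended on the 2 tumours as well: within run C it moved from -0.58 to -1.965 without them. Its call is therefore no test of the groups either. The other calls of this fit also follow a choice made after the values were seen, and are a description. The sinusoidal list still had 5 calls, all lower.

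**Figure D3:**
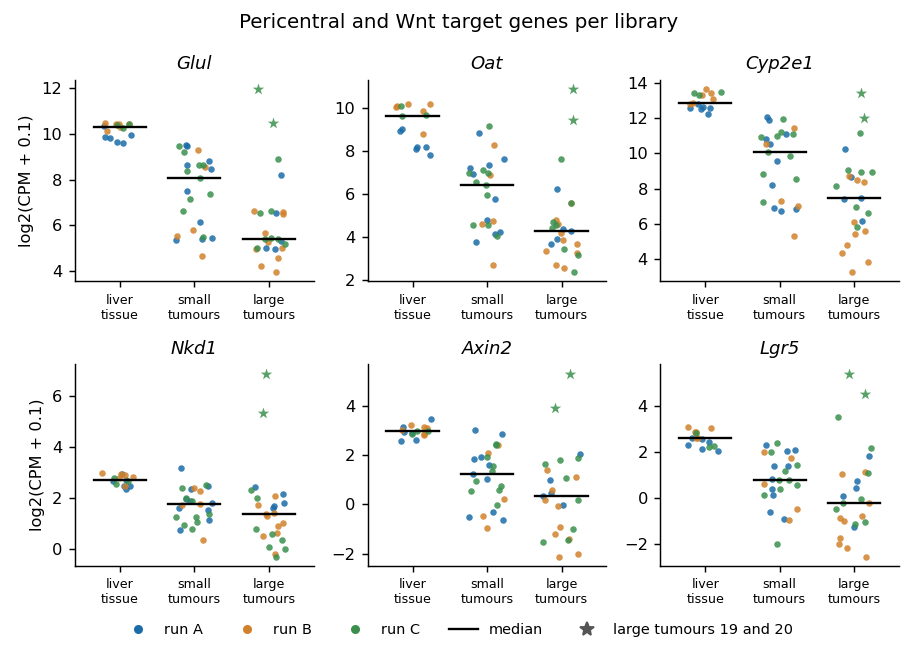
Each point is 1 library, coloured by sequencing run, for 6 pericentral or Wnt target genes; the y axis is log2(CPM + 0.1), bars are medians, and stars mark large tumours 19 and 20. In Glul, Oat, Nkd1, Axin2 and Lgr5 both stars lie above all small tumours, in Cyp2e1 only large tumour 20 does (11252 CPM against a highest small tumour of 4221 CPM), and most other large tumours lie under the median of small tumours.

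The other genes called lower were of varied kinds. Pla2g2e, a secreted phospholipase, had the largest called fall: it ran from 0 to 6.01 CPM (median 0.217) in large and from 0.115 to 15.8 CPM (median 1.36) in small tumours, with a difference of -2.54 ± 0.57 (edgeR, adjusted p = 0.0361). It was near absent from liver tissue, where the highest of 15 libraries had 0.425 CPM. Cst8, a relative of the cystatin protease inhibitors, had medians of 0.329 and 0.748 CPM and fell by 1.61 ± 0.35 (edgeR, adjusted p = 0.0348). Cyp26b1, which breaks down retinoic acid, had medians of 0.660 and 1.85 CPM and fell by 1.42 ± 0.32 (edgeR, adjusted p = 0.0361), with 6.11 CPM in liver tissue. Ugt2b37, a glucuronosyltransferase of a family with close relatives, fell by 1.27 ± 0.28, and Slc26a10 by 1.42 ± 0.30. Hectd2os, an antisense transcript of Hectd2, fell by 2.09 ± 0.50 (edgeR, adjusted p = 0.0489), and whether its counts were kept apart by strand is not given in the sources used here.

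Membrane and lipid genes made up part of the remaining falls. Cd55, which protects cells from complement, ran from 1.59 to 13.5 CPM in large and from 7.35 to 15.1 CPM in small tumours, so that 24 of 25 large tumours lay below the small median of 12.3 CPM, and it fell by 0.63 ± 0.15 (edgeR, adjusted p = 0.0414). Tmem30a, a partner subunit of phospholipid flippases, ran from 86.8 to 155.0 CPM in large and from 108.4 to 192.4 CPM in small tumours and fell by 0.27 ± 0.06 (edgeR, adjusted p = 0.0348). Sgpp1, a phosphatase of sphingosine 1-phosphate, had medians of 36.4 and 44.4 CPM and fell by 0.31 ± 0.07 (edgeR, adjusted p = 0.0361). Adam23, Armcx1, Fam167a, the potassium channel gene Kcnj16, Tpbgl, Vma21 and Zfp667 were the others, with differences from -0.96 (Fam167a) to -0.24 (Vma21).

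Most called rises were small shifts of genes that all tumours express. Dnajc12, a co-chaperone of the aromatic amino acid hydroxylases, had the smallest p: all 25 large tumours lay above the small median of 12.3 CPM, from 13.0 to 34.2 CPM with a median of 16.4, while small tumours ran from 6.85 to 19.0 CPM. Its difference was 0.66 ± 0.13 (edgeR, adjusted p = 0.0331), and it was 0.29, 0.37 and 1.11 in runs A, B and C. Mvp, the major vault protein, ran from 87.9 to 185.8 CPM (median 119.1) in large and from 57.5 to 124.1 CPM (median 95.3) in small tumours and rose by 0.37 ± 0.07 (edgeR, adjusted p = 0.0331). Pacs2, a sorting protein of contacts between endoplasmic reticulum and mitochondria, had medians of 33.4 and 28.7 CPM and rose by 0.24 ± 0.05 (edgeR, adjusted p = 0.0331), with 0.26, 0.25 and 0.22 in the runs alone.

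The largest called rises were of 2 genes at a few CPM. Ccn5, a matricellular protein, ran from 0.369 to 18.2 CPM (median 3.20) in large and from 0.696 to 6.87 CPM (median 1.42) in small tumours, and 6 large tumours lay above every small one. It rose by 1.37 ± 0.30 (edgeR, adjusted p = 0.0361). Fosl1, the AP-1 subunit FRA-1 and a target of ERK signalling, ran from 0.271 to 7.62 CPM (median 1.31) in large and from 0.141 to 1.73 CPM (median 0.569) in small tumours, and 9 large tumours lay above every small one. It rose by 1.17 ± 0.27 (edgeR, adjusted p = 0.0382) and was the 1 call among 14 ERK targets (0.0934% of all genes), of which 11 had a positive difference with a median of 0.11. Bbc3, the pro-apoptotic protein PUMA and a target of p53, rose by 0.28 ± 0.06 (edgeR, adjusted p = 0.0361), the 1 call among 14 p53 targets (0.0934% of all genes), with a list median of 0.08. Polr1c, a subunit of RNA polymerases I and III, rose by 0.18 ± 0.04, and Rpl10a, a ribosomal protein with processed copies in the genome, by 0.25 ± 0.06. Dtnb, Fam234b, Nosip, the phosphatase inhibitor Ppp1r14b and the vesicle tethering subunit Vps16 were the other rises, from 0.14 (Vps16) to 0.43 (Fam234b).

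Ribosomal protein genes had small positive differences throughout. All 22 on the list lay above 0 with a median of 0.10 against 0.00 for all genes, 9 passed an unadjusted p of 0.05 (7.26% of all genes), and none was called. Rpl10a is not on that list.

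Groups that mark proliferation, malignancy and immune activity were not called. None of 22 genes of G2 and mitosis passed either test, although 21 had a positive difference, with a list median of 0.17. The list median was 0.18 without large tumours 19 and 20. It was 0.00 without large tumour 18, the tumour library with the highest level of the neutrophil gene S100a8 (11.3 CPM). Mki67, which marks cycling cells, ran from 5.45 to 34.6 CPM (median 16.2) in large and from 5.75 to 39.6 CPM (median 17.2) in small tumours, a difference of 0.05 ± 0.17 (edgeR, adjusted p = 0.922), and had a median of 4.46 CPM in liver tissue. Afp, alpha-fetoprotein, had medians of 191.1 and 185.8 CPM and a difference of 0.40 ± 0.39 (edgeR, adjusted p = 0.684), with its highest value, 2622 CPM, in a large tumour. Gpc3, another fetal liver gene, had medians of 484.6 and 497.2 CPM against 5.07 CPM in liver tissue. In the median both tumour groups lay above liver tissue for Mki67 and Gpc3, and the ranges of large and small tumours overlapped.

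The neutrophil chemokine Cxcl1 had medians of 40.5 CPM in large and 29.2 CPM in small tumours and a difference of 0.38 ± 0.20 (edgeR, adjusted p = 0.387). Pdcd1, the checkpoint receptor PD-1, had medians of 0.556 and 0.534 CPM and a difference of 0.79 ± 0.40 (edgeR, adjusted p = 0.357), and Cd274, its ligand PD-L1, had medians of 6.58 and 6.26 CPM. Of 24 interferon-stimulated genes none passed either test, and the median was 0.05. Antigen presentation genes lay slightly above 0, with 13 of 16 positive, a median of 0.20 and 6 at an unadjusted p under 0.05 (7.26% of all genes), but no call.

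**Figure D4:**
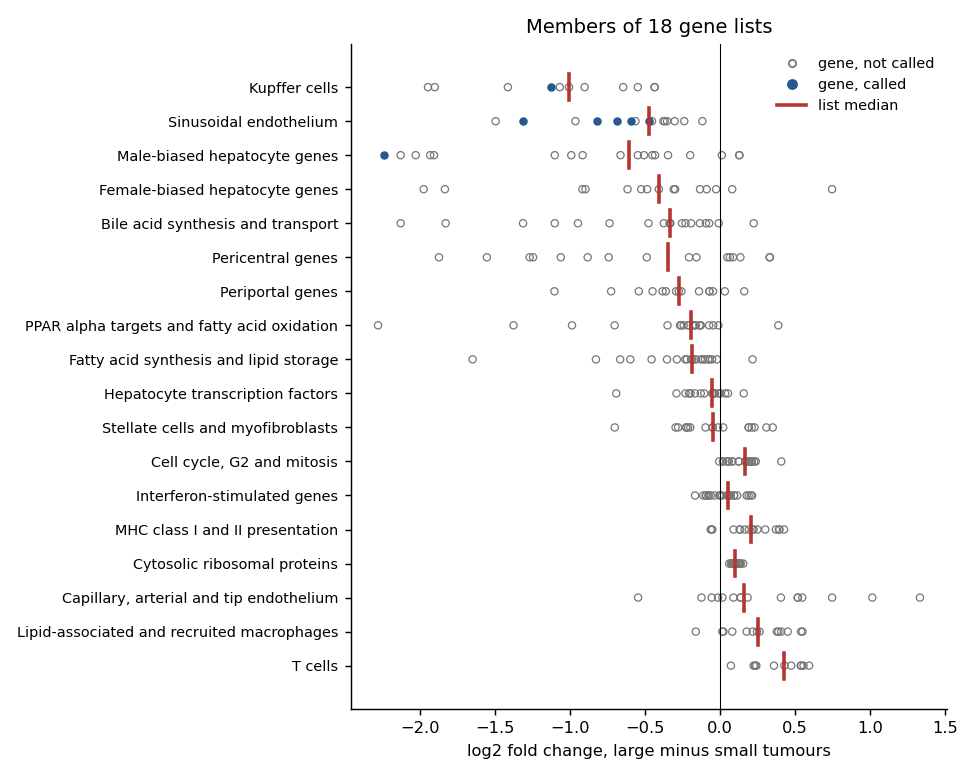
Each circle is a gene of 1 of 18 gene lists, placed by its log2 fold change of large minus small tumours; filled circles were called and red bars are list medians. Kupffer cell genes (median -1.01), male-biased genes (-0.61) and sinusoidal genes (-0.48) lie furthest to the left, and T cell genes, none of them called, to the right (0.43).

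The difference between tumour sizes was also read within each run. All 38 called genes had the same sign in runs A, B and C taken alone. The pooled fit chose them, so this is a description and no separate test. A test of whether the size effect differed between runs called 0 of 13913 genes, with 698 at an unadjusted p under 0.05 (5.02%) and a lowest adjusted p of 0.65 (edgeR). Among the called genes the run values were furthest apart for Pla2g2e, at -2.31, -1.05 and -3.80 in runs A, B and C, for Hectd2os, at -2.62, -3.50 and -0.81, and for Hsd3b5, at -2.38, -3.67 and -1.22. By the test of size by run, Dnajc12 had the lowest unadjusted p of the called genes (edgeR, p = 0.00552). Without run C its difference was 0.33 (edgeR, adjusted p = 0.404).

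**Figure D5:**
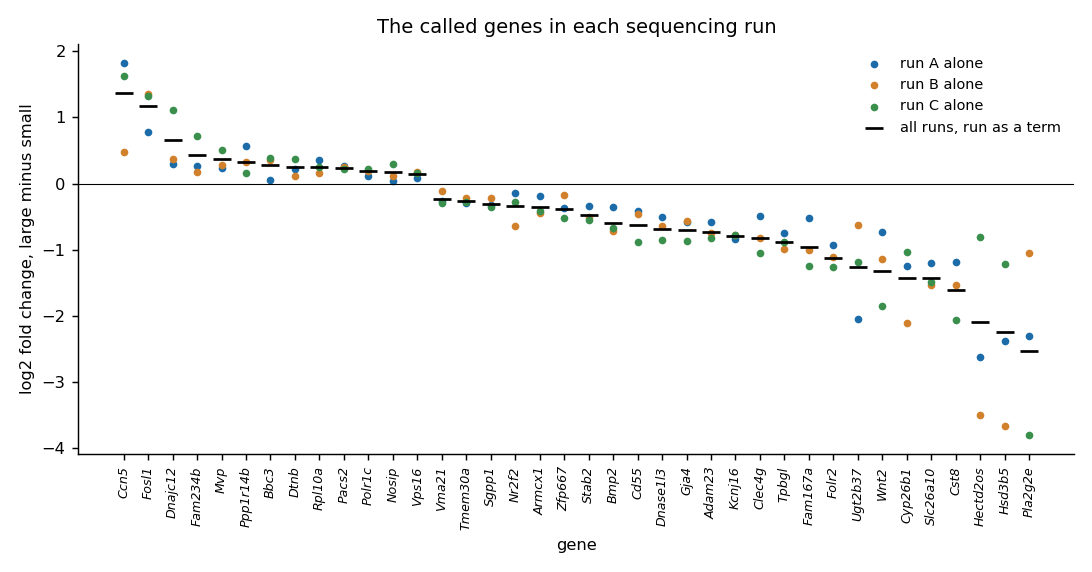
For each of the 38 called genes, ordered by the pooled estimate, points give the log2 fold change of large minus small tumours in run A, B or C alone and bars give the fit of all runs with run as a term. Every point lies on the same side of 0 as its bar, with the widest scatter at Pla2g2e, Hsd3b5 and Hectd2os.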

How the data were processed

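RNA of whole tumours and liver tissue was sequenced from stranded mRNA libraries (per the labels' protocols), and the authors deposited their raw counts as a single table with 37713 gene rows and 199 library columns. Per the submitters' processing notes, the tools were HTSeq 0.11.2, HISAT2 2.1.0 and, for reads, FastQC 0.11.8 and Trim Galore 0.6.4, with GRCm38 as the genome build. The strand setting of the counting is not given in the sources used here. The 5 HTSeq summary entries (55.9% of entries in tissue libraries) were left out. Identifiers were matched to GENCODE annotation, which gave symbols for 37693 genes.

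Groups came from the titles. Genes passing edgeR's filterByExpr (minimum count 10, total 15) were fitted with TMM factors and run as a term (edgeR 4.0.16, R 4.3.3), and tested by the robust quasi-likelihood test. CPM values use TMM factors over the 65 tissue libraries. The standard error is the estimate divided by the square root of F. Alternatives used DESeq2 1.42.0, limma 3.58.1, other factors, filters, runs and libraries. The fit was also run on simulated counts, where 31 of 40 genes raised by 0.5 and 1 unchanged gene were called. Those counts held no run effects and no tumours sharing a mouse, so they do not test how the fit handles these. A count of 0 allows up to 3 counts, between 0.137 and 0.249 CPM in tumour libraries, for counting error only.

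Named genes were the 15 largest rises and falls of at least 5 CPM, the 5 with the smallest p each way, up to 4 called or 2 uncalled members of each of 59 lists, and a fixed set. Further called genes, list members and markers were named after their values were seen. The members and lists were chosen with earlier results of these data known. Among 600 pairs of libraries within groups, none was alike within sampling noise.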

Additional observations from a re-analysis of the deposited data

How the results depend on the processing

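The number of genes called depended on the setting, while direction did not: all 38 genes kept their sign in every setting run. DESeq2 called 213 genes (69 higher, 144 lower), limma with quality weights 294 (133 higher, 161 lower), the fit of 65 tissue libraries 360 (135 higher, 225 lower), the fit without a filter 77 (33 higher, 44 lower) and the fit without a run term 91 (30 higher, 61 lower). RLE factors gave the same 13 and 25. Run A alone gave 0 calls, run B 1 (lower) and run C 2 (higher). Without run A there were 0, without run B 4 (all higher) and without run C 0, with fewer samples in each. Unadjusted p-values under 0.05 numbered 989, 719 and 1518 in runs A, B and C alone, and 1434 and 1442 without run A and run C. Leaving out the 1 tumour over 10 CPM of S100a8, large tumour 18, left 2 calls, both higher. Without large tumours 19 and 20 there were 92 (21 higher, 71 lower), and within run C without them 1 (higher). These last alternatives were chosen after seeing the data.

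Leaving out 1 library at a time gave 0 to 171 calls, with 0 to 77 higher and 0 to 115 lower. The count was 1 without small tumour 11 or 13, and 156, 149 and 140 without small tumour 14, large tumour 16 and large tumour 20. Genes called in at least 40 of the 50 fits numbered 12, among them Dnajc12 (47), Pacs2 (45), Wnt2, Dnase1l3, Mvp and Slc26a10 (44 each). Called least often were Vma21 (19), Hectd2os (20), Adam23 (21), Clec4g (23), Hsd3b5 and Vps16 (24 each), and Bmp2 and Cd55 (25 each).

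Large and small tumours share replicate numbers. Whether same-numbered tumours came from the same mouse was not tested, because the mouse is not given in the sources used here. Once group and run means were removed, 2 of 25 same-numbered pairs had a correlation over 0.1, and the highest was 0.363. Their mean was -0.101, against 0.005 for pairs of other numbers. With only group means removed, 10 of 25 were over 0.1, with a mean of 0.076 against -0.003 for other numbers. With run and the replicate block, 1 gene was called (1 higher, 0 lower).

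Of 70 genes whose difference is given, 5 changed sign in some setting. Afp was -0.53 in run A alone, -0.23 in run B and -0.38 without run C. Cyp2e1 was 0.34 and Glul 1.00 in run C alone, and Glul was 0.0013 without a run term and 0.099 without run B. Mki67 was -0.030 without a run term, -0.037 in run C, -0.0072 in run C without large tumours 19 and 20, -0.041 with the replicate block, -0.018 without large tumour 18 and -0.012 without small tumour 14. Pecam1 was -0.016 in run A alone, -0.063 in run B and -0.037 without run C. None of these was called in the fit of 50 tumours, and the cause was not tested. Levels under 0.25 CPM rest on 3 counts or fewer in the shallowest tumour library.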

Other observations

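Lipid genes of hepatocytes mostly lay below 0 in large tumours without a call. Of 20 targets of PPAR alpha and genes of fatty acid oxidation 19 were negative, with a median of -0.20, and 6 were lower at an unadjusted p under 0.05 (7.07% of all genes). Cyp4a14, a fatty acid hydroxylase, had medians of 2.98 CPM in large tumours, 50.5 CPM in small tumours and 691.8 CPM in liver tissue, and a difference of -2.28 ± 0.67 (edgeR, adjusted p = 0.0972). Plin4, a coat protein of lipid droplets, had medians of 2.07, 6.20 and 33.5 CPM and a difference of -1.65 ± 0.40 (edgeR, adjusted p = 0.0538). Of 15 periportal genes 13 were negative with a median of -0.28, and none was called.

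Some single values outside the groups above came close to the threshold. Il1a, the cytokine interleukin 1 alpha, had medians of 3.02 and 4.54 CPM in large and small tumours and a difference of -0.58 ± 0.14 (edgeR, adjusted p = 0.0541). Ccl24, an eosinophil chemokine made by macrophages, had a difference of -1.06 ± 0.28 (edgeR, adjusted p = 0.0654). Transcripts of the liver surface were low in both groups, with a summed level of nerve and mesothelium genes of 1.17 to 11.7 CPM (median 2.47) in large and 1.25 to 13.8 CPM (median 4.46) in small tumours. Of the 3 such genes tested 2 were lower at an unadjusted p (7.07% of all genes) and none was called, with a median of -1.07, and their part in the results above was not tested. The red cell gene Hbb-bs differed by -1.21 in run A and by -0.09 and -0.17 in runs B and C.

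Levels varied more among large than among small tumours for 9133 of 13913 genes (65.6%), by the standard deviation of log2(CPM + 0.5).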
